A study of Rattus norvegicus with 9 samples.

Results

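The genes of glucose use were followed through the loss of sodium pump activity in rat aortic smooth muscle cells (RASMC). A list of 37 genes of textbook glycolysis, lactate and pyruvate handling, and the pentose phosphate pathway was read from arrays that hold 27342 probe sets. The genes were chosen by name, with earlier results of these data known. Of the 37 genes, 36 had a probe set with a single gene symbol in the annotation used here, out of 14324 genes with such a probe set. Pgd, which encodes 6-phosphogluconate dehydrogenase, had none and was not analysed here. RASMC are primary cells that were bought from a commercial supplier, kept to a low number of passages, and made quiescent in medium with very little serum. All 3 groups were first rinsed with K+-free medium and then kept for 6 hr in 1 of 3 ways: Control cells in complete DMEM, Ouabain cells in DMEM with 3 mM ouabain, an inhibitor of the Na+,K+-ATPase, and K_Free cells in DMEM made without K+, which stops the same pump because it has no external K+ to carry. The dose of ouabain is high because rodents carry a pump subunit of low ouabain affinity. Each group had 3 arrays. The study's methods describe them as coming from independent experiments, with controls and treatments run side by side in each. No glucose uptake, lactate or enzyme activity is in these data.

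Glycolysis turns glucose into pyruvate in the cytosol and yields ATP without oxygen. Its pace is set mainly by hexokinase, which traps glucose inside the cell, and by phosphofructokinase, which is switched on by fructose 2,6-bisphosphate, a signal molecule made and broken down by the Pfkfb enzymes. Pyruvate then leaves as lactate through monocarboxylate transporters or enters mitochondria through the pyruvate dehydrogenase complex, which the Pdk kinases turn off by phosphorylation, while the pentose phosphate pathway draws off glucose phosphate to make ribose and NADPH. Vascular smooth muscle is known for making much lactate even when oxygen is present, and its sodium pump is known to draw part of its ATP from glycolysis.

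The promoters of 5 genes are shown because they belong to genes that moved far and in opposite directions. The Pfkfb3 and Pfkfb4 windows belong to the same enzyme family, of which Pfkfb3 rose and Pfkfb4 fell, while Slc16a1, which rose, and Pdk2, which fell, both hold CACGTG. Hk2 had the largest rise among the members in both treatments. Each window is the 250 bases before the gene's start in RefSeq's rat build GRCr8, written 5′ to 3′ along the gene's strand: chr4:116841276-116841525, minus strand, for Hk2, chr17:71944683-71944932, plus strand, for Pfkfb3, chr8:118525916-118526165, plus strand, for Pfkfb4, chr2:194812410-194812659, plus strand, for Slc16a1, and chr10:80483913-80484162, minus strand, for Pdk2. Capitals mark matches to ACGTG or GCGTG on either strand, which are the core letters of hypoxia response elements. Where capitals read CACGTG, the E-box core, the ACGTG matches of both strands overlap.
Hk2: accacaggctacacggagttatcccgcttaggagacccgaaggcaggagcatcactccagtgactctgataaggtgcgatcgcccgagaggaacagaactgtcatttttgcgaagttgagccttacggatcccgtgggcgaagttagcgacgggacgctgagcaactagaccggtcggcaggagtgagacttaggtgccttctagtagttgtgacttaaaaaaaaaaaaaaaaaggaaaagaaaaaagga
Pfkfb3: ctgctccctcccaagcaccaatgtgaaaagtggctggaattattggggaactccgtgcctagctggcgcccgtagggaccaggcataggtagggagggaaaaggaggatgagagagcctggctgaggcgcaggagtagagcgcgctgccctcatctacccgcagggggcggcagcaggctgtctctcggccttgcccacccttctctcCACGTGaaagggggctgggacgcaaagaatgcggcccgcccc
Pfkfb4: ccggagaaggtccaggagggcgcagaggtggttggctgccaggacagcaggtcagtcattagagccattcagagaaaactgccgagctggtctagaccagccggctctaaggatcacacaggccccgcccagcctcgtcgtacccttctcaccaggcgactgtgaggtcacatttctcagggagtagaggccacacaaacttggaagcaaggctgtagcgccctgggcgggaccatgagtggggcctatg
Slc16a1: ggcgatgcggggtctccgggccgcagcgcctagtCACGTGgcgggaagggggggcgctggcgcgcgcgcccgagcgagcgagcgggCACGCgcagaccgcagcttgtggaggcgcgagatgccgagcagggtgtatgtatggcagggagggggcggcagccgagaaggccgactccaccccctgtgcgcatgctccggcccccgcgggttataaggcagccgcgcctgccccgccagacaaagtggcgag
Pdk2: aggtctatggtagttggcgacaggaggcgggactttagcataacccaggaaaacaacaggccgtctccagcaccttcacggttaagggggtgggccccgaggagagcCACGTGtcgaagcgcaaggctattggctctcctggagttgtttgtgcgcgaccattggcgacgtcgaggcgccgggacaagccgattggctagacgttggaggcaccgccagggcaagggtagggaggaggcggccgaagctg

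RefSeq windows matched 33 of the 36 genes, all but Slc2a3, Pgk1 and Pgls. ACGTG stood on either strand in 13 of the 33 (39.4%), against 16.9% of all 27457 windows of this length. GCGTG stood in 16 (48.5%, against 27.2%), and at least 1 of these 2 motifs in 20 (60.6%, against 37.9%). CACGTG, which holds ACGTG within it, stood in 5 (15.2%, against 5.79%): Pfkfb3, Ldha, Slc16a1, Pdk2 and Pdhb. Of these 5 genes, Pfkfb3 and Slc16a1 rose in both treatments, Pdhb rose with ouabain, Pdk2 fell in both and Ldha passed the test in neither. The windows of Hk2, Pfkfb4 and Pdk4 held none of these letters. The GC content of the member windows ran from 47.6% (Pfkm) to 74.0% (Slc16a1), and the background windows were not matched to them for it. These matches are a description of the letters.

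The values are log2 signals as deposited, normalized over the arrays by RMA, and 1 unit is a 2-fold difference. A gene is said below to have risen or fallen where limma's moderated test gave a Benjamini-Hochberg adjusted p under 0.05 over all 27342 probe sets together with a change over 1.2-fold (0.263 on the log2 scale). Every p below is such an adjusted p from limma. The 3 control arrays served for both treatments, and a deviation of theirs enters each comparison. With 3 arrays against 3, a two-sided exact permutation test of a single gene cannot give a p below 0.1. Changes are relative to the total RNA on an array, and in such bulk samples fewer cells of a type and less RNA per cell cannot be told apart.

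The arrays fitted the labelled cell type in part. The smooth muscle markers Tagln, Cnn1, Myl9 and Tpm2 had group means from 11.49 to 13.60, well above the array medians of 6.76 to 6.8, whereas desmin, Des, stayed at 5.63 to 5.87 and Acta2 was not analysed here. Of 7 smooth muscle markers, Myh11, smooth muscle myosin, fell by 0.69 with ouabain and by 0.62 in K+-free medium, Cnn1 by 0.28 and 0.29, and Smtn by 0.33 with ouabain, and none rose. The endothelial markers Cdh5, Tek and Cldn5 and the macrophage markers Ptprc, Adgre1, Cd163, Aif1 and Csf1r all had means of 5.35 to 6.24, below those medians, although Cdh5 (0.40 and 0.29) and Csf1r (0.33 and 0.53) rose in both treatments. Cd68, a lysosomal protein of macrophages and other cells, rose from 6.47 to 7.76 and 7.41, and the part of these markers in the results below was not tested. The spread of signals was narrower after treatment, with an upper quartile of 9.24 to 9.27 on the control arrays and 9.07 to 9.15 on the 6 others, and a lower quartile of 5.70 to 5.74 and 5.79 to 5.85. Ouabain replicate 2 had the highest signal of the 3 ouabain arrays in 29 of the 36 genes (80.6%, against 42.7% of all genes). The members also leaned together in the other groups. K_Free replicate 1 was the highest of its group in 23 (63.9%, against 35%) and K_Free replicate 3 in 3 (8.33%, against 28.4%). Control replicate 3 was the highest of its group in 1 (2.78%, against 29%). Without Ouabain replicate 2, ouabain raised 6 and lowered 15 members (16.7% and 41.7%), against 6 and 12 with it (16.7% and 33.3%). Over all probe sets, 17.9% rose and 17.6% fell without it, against 15.8% and 16.8% with it.

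Ouabain raised 6 of the 36 members (16.7%) and lowered 12 (33.3%), and 18 did not pass. Over all probe sets, 15.8% rose and 16.8% fell, and over all genes, each read from 1 probe set, 17.5% rose and 22.7% fell. K+-free medium raised 5 members (13.9%) and lowered 16 (44.4%), and 15 did not pass, against 16.1% and 17.9% of all probe sets and 17.8% and 24.0% of all genes. The median change of the members was -0.11 with ouabain and -0.22 in K+-free medium, where that of all genes was 0.06 and 0.05. Rises were near the background and falls above it. No test of the list was run, because it was chosen with earlier results of these data known. When the arrays were centred on B2m, the study's PCR reference gene, ouabain raised 5 and lowered 18 members (21.7% of those that passed were higher, against 33.3%), while the share of higher calls over all probe sets went from 48.5% to 25.8% with ouabain and from 47.3% to 25.2% in K+-free medium. Centring on a set of reference genes gave 29.3% and 26.8%. These references were not flat: of 7 with a probe set, ouabain raised 2 and K+-free medium 1, and none fell. B2m itself changed by 0.15 and 0.16, under the fold limit. Centring subtracts the changes of the references from every gene. B2m centring moved the median change of all probe sets from 0.07 to -0.08 with ouabain and from 0.06 to -0.10 in K+-free medium. When the arrays were quantile normalized again, which removes the narrower spread, ouabain raised 7 and lowered 8 members (19.4% and 22.2%, against 16.9% and 15.5% of all probe sets), and the excess of falls over rises among the members with ouabain was all but gone. Of the members that passed, 46.7% were then higher, against 52.2% of the probe sets that passed. In K+-free medium 7 rose and 16 fell (19.4% and 44.4%, against 16.8% and 17.1% of all probe sets), so falls stayed above the background there.

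In both treatments 4 genes rose: Hk2, Pfkfb3, Slc16a1 and Pdk4. In both, 11 fell: Pfkl, Pfkm, Pfkfb1, Pfkfb2, Pfkfb4, Pdk1, Pdk2, Pdk3, Dlat, Rpia and Taldo1. Pdha1 and Pdhb rose and Eno2 fell with ouabain, without passing in K+-free medium. Slc2a3 rose and Pfkp, Tigar, Tpi1, Ldhb and Tkt fell in K+-free medium, without passing with ouabain. The other 12 genes passed in neither: Slc2a1, Gpi, Aldoa, Aldoc, Gapdh, Pgk1, Pgam1, Eno1, Pkm, Ldha, Slc16a3 and Pgls.

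**Figure D1:**
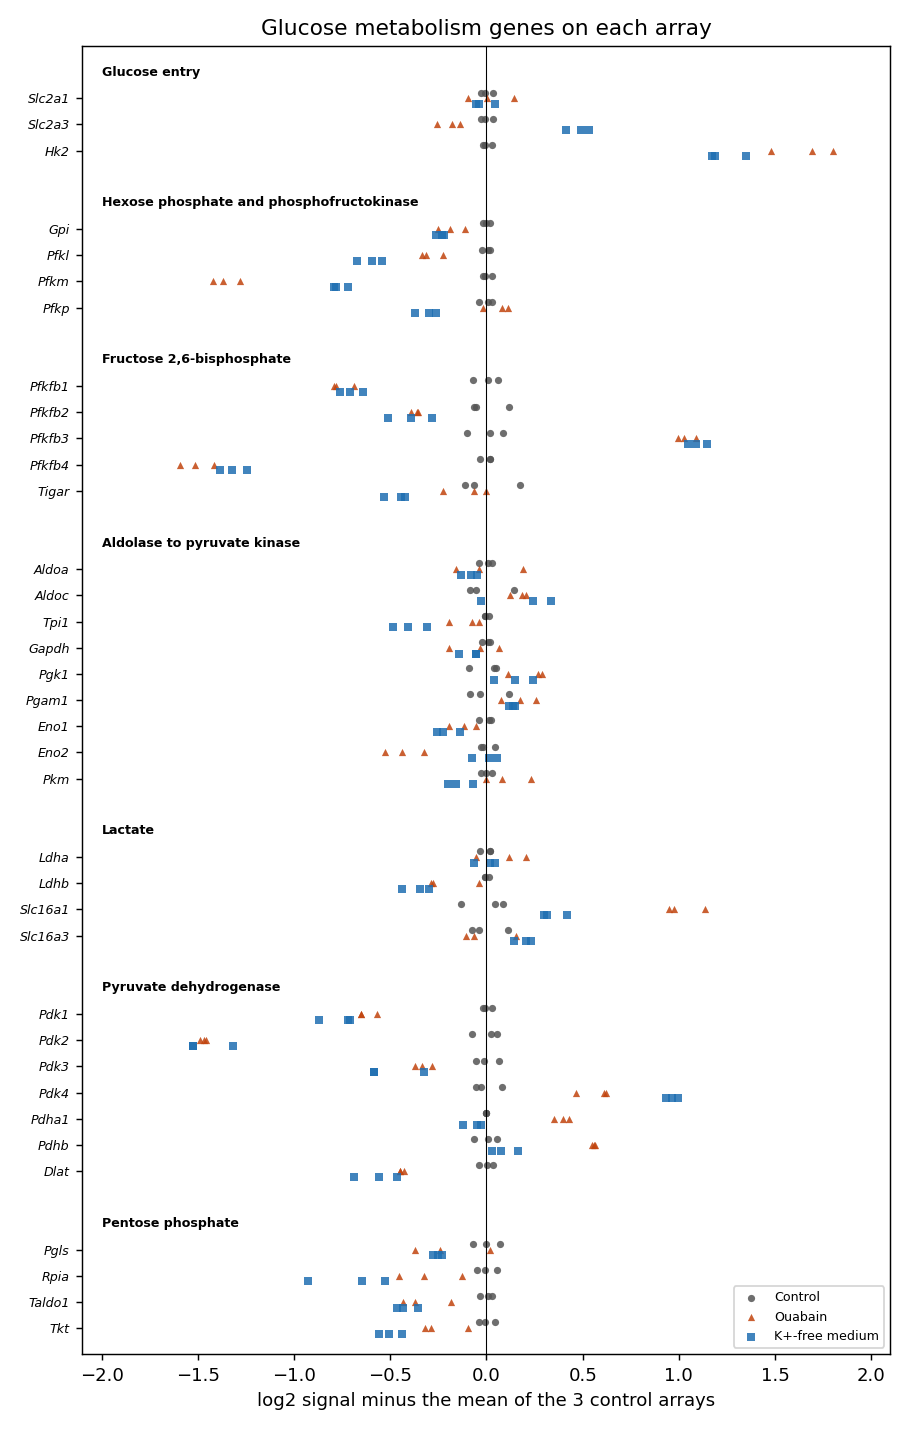
Log2 signal of each member on each of the 9 arrays, minus the mean of its 3 control arrays (x axis), with genes in rows by role. Circles are control, triangles ouabain and squares K+-free medium; of the rows from aldolase to pyruvate kinase, Eno2 with ouabain and Tpi1 in K+-free medium passed, while Hk2, Pfkfb3, Pfkfb4, Pfkm and Pdk2 lie farther out in both treatments.

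Glucose entry was marked by hexokinase 2. Hk2 encodes the inducible hexokinase that can bind to mitochondria. Its signal was 8.68, 8.73 and 8.69 on the control arrays, 10.39, 10.50 and 10.18 with ouabain, and 10.05, 9.89 and 9.87 in K+-free medium. All 6 treated arrays lay above every control array, and the 3 ouabain arrays lay above the 3 K+-free arrays. The rise was 1.65 ± 0.081 (SE, n = 3 per group), or 3.15-fold, with ouabain (limma adjusted p = 3.52e-08). It was 1.24, or 2.35-fold, in K+-free medium (limma adjusted p = 2.48e-07), and the difference of -0.42 between the treatments passed too (95% interval -0.60 to -0.24, limma adjusted p = 0.00296).

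Of the glucose transporters among the members, Slc2a1 passed in neither treatment and Slc2a3 rose in K+-free medium. Slc2a1, the widespread GLUT1, changed by 0.02 with ouabain (95% interval -0.13 to 0.16) and by -0.02 in K+-free medium (-0.16 to 0.13). Slc2a3, the high-affinity GLUT3, read 10.63, 10.67 and 10.61 on the control arrays, 10.50, 10.46 and 10.38 with ouabain and 11.13, 11.17 and 11.05 in K+-free medium. The 3 groups did not overlap, and the treatments lay on opposite sides of the control. In K+-free medium Slc2a3 rose by 0.48 (limma adjusted p = 2.28e-05), and with ouabain its change of -0.19 had an adjusted p of 0.0143 in limma but stayed under 1.2-fold. The difference between the treatments was 0.67 ± 0.054 (SE, limma adjusted p = 7.46e-06), which was the largest among the members in which K+-free medium was the higher.

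Phosphofructokinase fell in its muscle and liver forms. Pfkm, the muscle subunit, read 9.54, 9.59 and 9.55 on the control arrays, 8.19, 8.28 and 8.14 with ouabain and 8.78, 8.84 and 8.77 in K+-free medium. The groups were apart, with ouabain lowest. It fell by 1.35 (2.56-fold, limma adjusted p = 9.05e-09) with ouabain and by 0.76 (1.7-fold, limma adjusted p = 4.15e-07) in K+-free medium, and the treatments differed by 0.59 (95% interval 0.48 to 0.71, limma adjusted p = 1.51e-05).

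The liver subunit had the opposite order of the treatments. Pfkl read 9.90, 9.87 and 9.91 on the control arrays, 9.56, 9.67 and 9.58 with ouabain and 9.35, 9.30 and 9.22 in K+-free medium. It fell by 0.29 (limma adjusted p = 0.00108) and 0.61 (limma adjusted p = 3.19e-06), and K+-free medium was lower than ouabain by 0.31 (limma adjusted p = 0.00148). Pfkp, the platelet subunit, fell by 0.31 in K+-free medium and changed by 0.06 with ouabain (95% interval -0.07 to 0.18). Gpi, which makes fructose 6-phosphate, changed by -0.19 and -0.23, under the fold limit in both, but passed as lower when centred on B2m (-0.34 and -0.39) or on reference genes (-0.31 and -0.38). The fall of Pfkl with ouabain was -0.24 after a further quantile normalization and no longer passed.

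The makers of fructose 2,6-bisphosphate split. Pfkfb3, the isozyme in which the kinase side prevails, read 9.21, 9.14 and 9.02 on the control arrays, 10.15, 10.21 and 10.12 with ouabain, and 10.27, 10.17 and 10.21 in K+-free medium. All treated arrays lay above the control, and the treatments overlapped. The rises were 1.03 ± 0.060 (SE, 2.05-fold, limma adjusted p = 1.28e-07) and 1.09 (2.13-fold, limma adjusted p = 6.94e-08), with a difference of 0.06 (95% interval -0.08 to 0.19).

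Pfkfb4, a close relative known as a hypoxia-induced isozyme, went the other way. It read 7.98, 8.03 and 8.03 on the control arrays, 6.42, 6.60 and 6.50 with ouabain, and 6.77, 6.63 and 6.69 in K+-free medium. The groups did not overlap, and the ouabain and K+-free arrays were close. Pfkfb4 fell by 1.51 (2.85-fold, limma adjusted p = 9.8e-09), the largest fall among the members with ouabain, and by 1.32 in K+-free medium (2.49-fold, limma adjusted p = 1.78e-08).

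Pfkfb1 and Pfkfb2 also fell in both treatments, and Tigar in K+-free medium. Pfkfb1, named the liver isozyme, read 6.55, 6.60 and 6.47 on the control arrays, 5.76, 5.85 and 5.75 with ouabain, and 5.83, 5.78 and 5.90 in K+-free medium. These signals lay below the array medians, and the control arrays were apart from all others. Pfkfb1 fell by 0.75 (limma adjusted p = 1.05e-06) and 0.70 (limma adjusted p = 1.6e-06). Pfkfb2, the heart isozyme, fell by 0.37 and 0.40, and its changes of -0.19 and -0.24 after a further quantile normalization did not pass. Tigar, a phosphatase that lowers fructose 2,6-bisphosphate, fell by 0.47 in K+-free medium (limma adjusted p = 0.000751), while its change of -0.10 with ouabain did not pass and was 0.09 after a further quantile normalization.

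**Figure D2:**
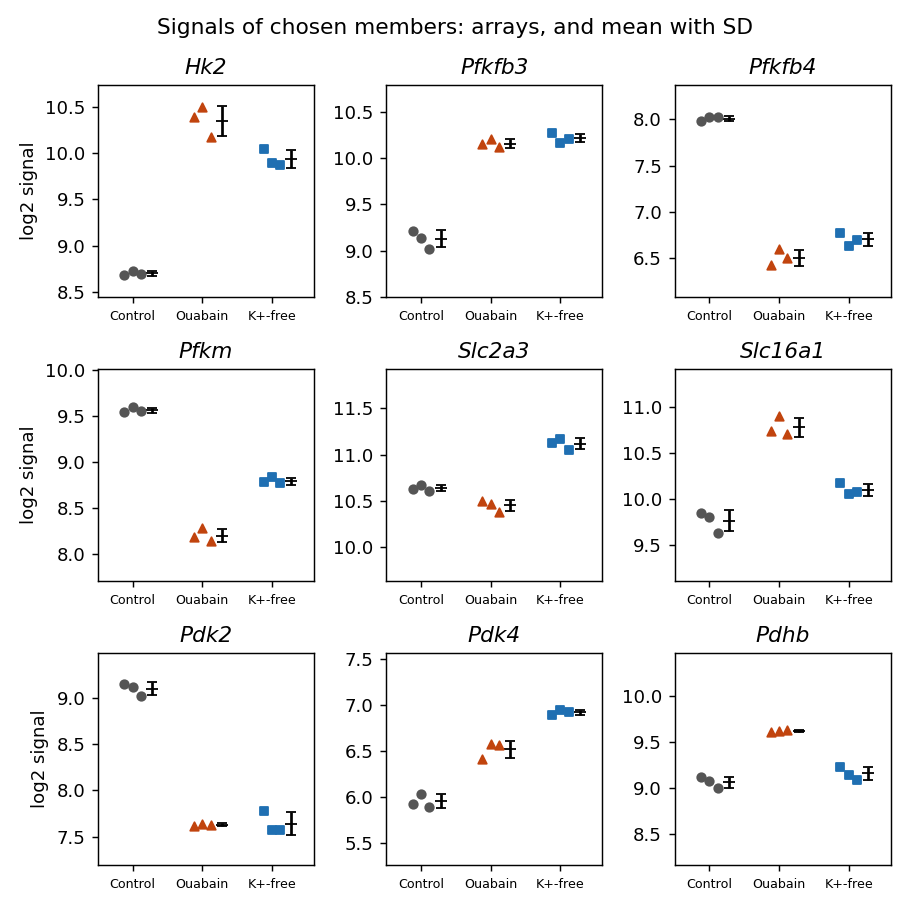
Log2 signals (y axis, of the same span in every panel) of 9 members on the control (circles), ouabain (triangles) and K+-free (squares) arrays, with the mean and SD of 3 arrays beside each group. Pfkfb3 and Pfkfb4 move in opposite directions in both treatments, and Slc2a3 and Pdhb each pass in only 1 of them.

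The steps from aldolase to pyruvate kinase had few calls. Of these 9 genes, 1 fell with ouabain and 1 in K+-free medium (11.1% each), none rose, and the median changes were -0.01 and -0.08. Over all genes, 22.7% fell and 17.5% rose with ouabain, and 24.0% fell and 17.8% rose in K+-free medium. Gapdh, glyceraldehyde 3-phosphate dehydrogenase and the study's loading control on protein blots, changed by -0.06 (95% interval -0.20 to 0.09) and -0.08 (-0.23 to 0.06). Its 16 probe sets ranged from -0.07 to 0 with ouabain and from -0.09 to -0.03 in K+-free medium, and none passed.

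The isozymes of enolase differed. Eno2, the neuronal form, fell by 0.43 with ouabain (limma adjusted p = 0.000162) and changed by -0.01 in K+-free medium, and the treatments differed by 0.43 (limma adjusted p = 0.000473). Eno1, the widespread form, changed by -0.13 and -0.21, under the fold limit, and by -0.28 and -0.37, past it, when centred on B2m. Pkm in K+-free medium passed there too, at -0.30. Tpi1, triosephosphate isomerase, fell by 0.40 in K+-free medium (limma adjusted p = 0.000285), with a change of -0.10 under ouabain. Aldoa, Aldoc, Pgk1, Pgam1 and Pkm changed by between -0.14 and 0.22 and did not pass, although Pgk1 with ouabain (0.22, adjusted p = 0.0317 in limma) was held back by the fold limit alone. Pgam1 passed in both treatments after a further quantile normalization, at 0.32 and 0.27. Its probe set was dim, with group means of 7.29 to 7.46, not far above the array medians. Gapdh, Aldoa, Tpi1, Pgk1, Pgam1, Eno1, Pkm and Ldha have many near-identical copies in rodent genomes, so that their probes may also read other transcripts.

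The largest change among the lactate genes was that of a transporter with ouabain. Slc16a1 encodes MCT1, which carries lactate and pyruvate across the plasma membrane with a proton. It read 9.85, 9.81 and 9.63 on the control arrays, 10.74, 10.90 and 10.71 with ouabain, and 10.18, 10.06 and 10.08 in K+-free medium. The groups were apart, with ouabain highest. The rise was 1.02 ± 0.074 (SE, 2.02-fold, limma adjusted p = 6.73e-07) with ouabain and 0.34 (1.26-fold, limma adjusted p = 0.00314) in K+-free medium, and the difference of -0.68 was the largest among the members in which ouabain was the higher (95% interval -0.84 to -0.51, limma adjusted p = 6.22e-05). The rise in K+-free medium no longer passed when arrays were centred on B2m (0.18, adjusted p = 0.0728 in limma).

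Of the other lactate genes, Ldhb alone passed, and in K+-free medium alone. Ldha, the subunit of lactate dehydrogenase that prevails in glycolytic tissue, changed by 0.09 (95% interval -0.06 to 0.24) and 0.00 (-0.15 to 0.15). Ldhb, the heart subunit, fell by 0.36 in K+-free medium (limma adjusted p = 0.00158). Its change of -0.20 with ouabain (adjusted p = 0.0415 in limma) was held back by the fold limit alone. That change passed when centred on B2m (-0.35) and without Ouabain replicate 2 (-0.28). The difference of -0.16 between the treatments did not pass. Slc16a3, the lactate exporter MCT4, changed by -0.01 and 0.20 and did not pass. After a further quantile normalization its change in K+-free medium was 0.39 and passed (adjusted p = 0.00132 in limma).

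All 4 kinases of pyruvate dehydrogenase passed in both treatments, 3 downward and 1 upward. Of all genes, 22.7% fell and 17.5% rose with ouabain, and 24.0% fell and 17.8% rose in K+-free medium. Pdk2 is the most widespread of the 4 kinases. It read 9.15, 9.12 and 9.02 on the control arrays, 7.61, 7.64 and 7.63 with ouabain, and 7.78, 7.57 and 7.57 in K+-free medium. The 6 treated arrays lay together, far below the control. Pdk2 fell by 1.47 ± 0.067 (SE, 2.77-fold, limma adjusted p = 2.26e-08) and 1.46 (2.74-fold, limma adjusted p = 1.91e-08), and the treatments differed by 0.01 (95% interval -0.13 to 0.16).

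Pdk1, known as a target of HIF-1, the main transcription factor of the response to hypoxia, fell too. It read 8.75, 8.71 and 8.70 on the control arrays, 8.07, 8.07 and 8.15 with ouabain, and 8.01, 7.85 and 8.0 in K+-free medium. The control arrays were apart from all others, and the falls were 0.62 (limma adjusted p = 3.74e-06) and 0.77 (limma adjusted p = 6.04e-07). Pdk3 fell by 0.33 and 0.49, of which the first was -0.21 and did not pass after a further quantile normalization.

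Pdk4, the kinase induced by fasting, was the exception. It read 5.93, 6.04 and 5.90 on the control arrays, 6.42, 6.58 and 6.57 with ouabain, and 6.89, 6.95 and 6.92 in K+-free medium. The groups did not overlap, and only in K+-free medium did all 3 arrays lie above the array medians. It rose by 0.57 (1.48-fold, limma adjusted p = 1.68e-05) and 0.97 (1.95-fold, limma adjusted p = 2.11e-07), with a difference of 0.40 (limma adjusted p = 0.000713).

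The E1 subunits of pyruvate dehydrogenase differed between the treatments. Pdhb, the E1 beta subunit, read 9.12, 9.07 and 9.0 on the control arrays, 9.61, 9.62 and 9.63 with ouabain, and 9.23, 9.14 and 9.09 in K+-free medium. The ouabain arrays were apart, and the K+-free arrays overlapped the control. It rose by 0.56 with ouabain (limma adjusted p = 7.21e-06), changed by 0.09 in K+-free medium, and differed by -0.46 between the treatments (limma adjusted p = 0.000102). Pdha1, the E1 alpha subunit that the kinases phosphorylate, rose by 0.39 with ouabain (limma adjusted p = 5.3e-05), changed by -0.07 in K+-free medium, and differed by -0.46 (limma adjusted p = 5.45e-05). When arrays were centred on B2m, the rise of Pdha1 was 0.24 and under the fold limit.

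Dlat, the E2 core of the complex, fell. It read 10.51, 10.58 and 10.55 on the control arrays, 10.10, 10.10 and 10.12 with ouabain, and 10.08, 9.99 and 9.86 in K+-free medium. The groups did not overlap. The falls were 0.44 (limma adjusted p = 0.000107) and 0.57 (limma adjusted p = 1.27e-05), and the difference between the treatments was -0.13 (95% interval -0.26 to 0.01).

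Ouabain raised none of the 4 measured pentose phosphate members and lowered 2 (50%), where 17.5% of all genes rose and 22.7% fell. K+-free medium raised none and lowered 3 (75%), against 17.8% and 24.0%. With 4 genes such shares are coarse. Rpia, which makes ribose 5-phosphate, read 8.62, 8.68 and 8.58 on the control arrays, 8.17, 8.50 and 8.30 with ouabain, and 8.10, 7.98 and 7.70 in K+-free medium. The groups did not overlap, but the treated arrays were spread widely. It fell by 0.70 in K+-free medium (limma adjusted p = 0.000202). Its fall of 0.30 ± 0.105 (SE) with ouabain (limma adjusted p = 0.036) was the least stable of the calls: the adjusted p from limma was 0.0586 to 0.0991 without each control array in turn and 0.0889 to 0.138 without Ouabain replicate 3 or 1, and the change was -0.09 after a further quantile normalization.

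Tkt encodes transketolase, which links the pathway to glycolysis. It read 11.11, 11.06 and 11.03 on the control arrays, 10.78, 10.97 and 10.75 with ouabain, and 10.63, 10.51 and 10.56 in K+-free medium. The groups did not overlap. Tkt fell by 0.50 in K+-free medium (limma adjusted p = 7.99e-05), while its change of -0.23 with ouabain was under the fold limit and was -0.30, past it, without Ouabain replicate 2. Taldo1, transaldolase, fell by 0.33 and 0.41, the first of which was -0.16 after a further quantile normalization. Pgls, which opens the ring of the oxidized sugar, changed by -0.20 and -0.25 and did not pass. Its changes were -0.35 and -0.41, and passed, when centred on B2m, and 0.01 and -0.06 after a further quantile normalization.

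Set directly against each other, the treatments differed in 14 of the 36 members. K+-free medium was higher in 4 (11.1%) and lower in 10 (27.8%), against 8.45% and 7.97% of all probe sets and 10.9% and 10.7% of all genes. The 4 were Slc2a3, Pfkm, Eno2 and Pdk4. The 10 were Hk2, Pfkl, Pfkp, Tigar, Tpi1, Slc16a1, Pdha1, Pdhb, Rpia and Tkt. The calls of Rpia and Tkt were lost without Ouabain replicate 2, at -0.31 (adjusted p = 0.0634 in limma) and -0.20. Those of Tpi1 and Tkt were lost without K_Free replicate 2, at -0.25 and -0.24, and that of Rpia without K_Free replicate 3, at -0.29. Pkm did not pass by its brightest probe set (-0.25), while its other probe sets did, at -0.42 and -0.32, as did the mean of its probe sets (-0.33, adjusted p = 0.00225 in limma). For the 22 that did not pass, the 95% intervals in the plot of differences between the treatments give the sizes that these arrays leave possible.

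**Figure D3:**
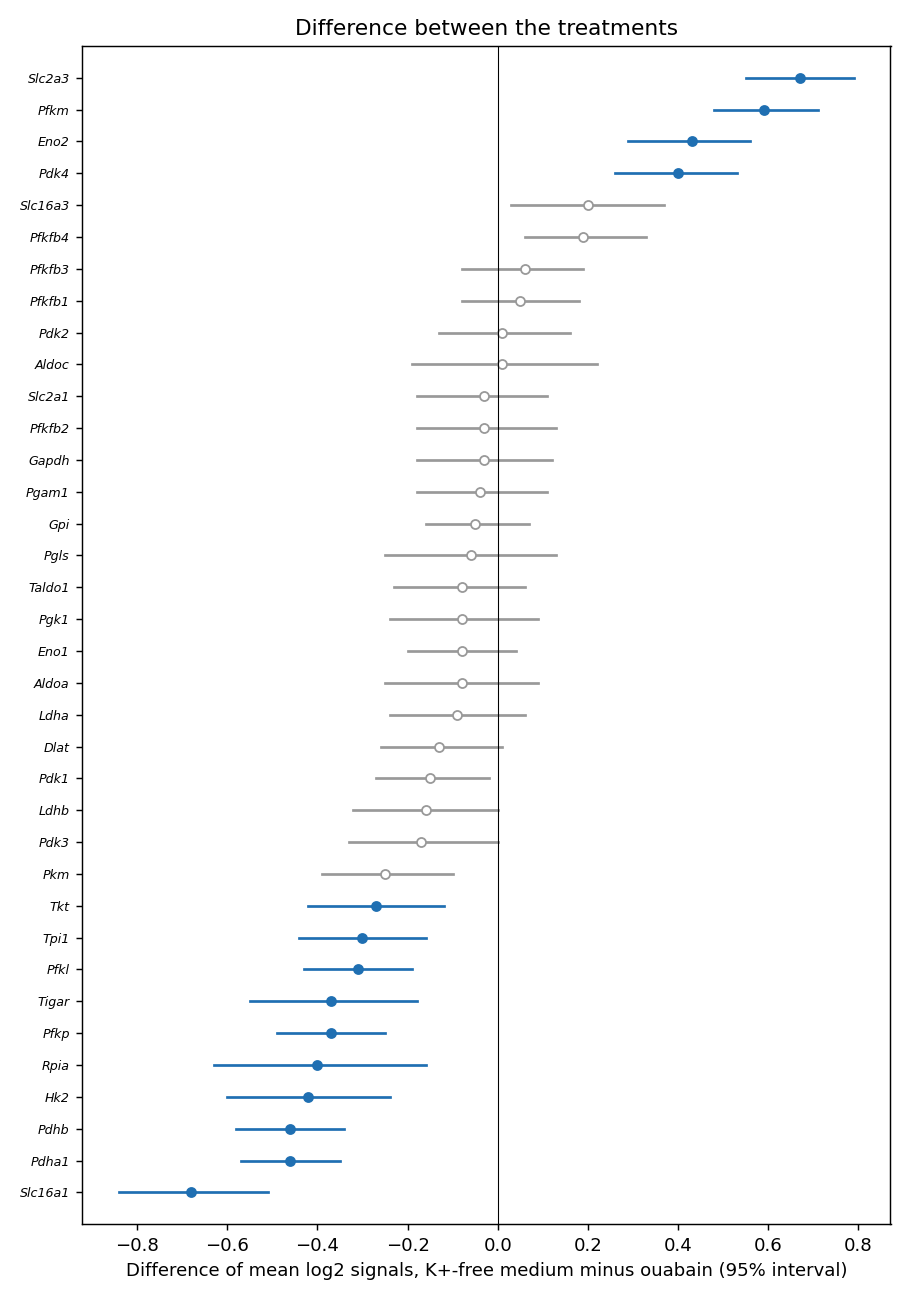
Difference of mean log2 signals between K+-free medium and ouabain (x axis) for the 36 members, with 95% intervals from limma; filled blue points passed the test and the fold limit, open grey points did not. The values run from -0.68 for Slc16a1 to 0.67 for Slc2a3.

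Of 51 further genes of these pathways, 42 had a probe set, of which ouabain raised 8 (19%) and lowered 11 (26.2%), and K+-free medium raised 5 (11.9%) and lowered 13 (31%), against the 17.5% and 22.7%, and 17.8% and 24.0%, of all genes. Centred on B2m, the counts were 4 and 14 with ouabain, against 7.92% and 22.8% of all probe sets. In K+-free medium they were 3 and 15, against 8.69% and 25.8%. Set against ouabain, K+-free medium gave higher signals for 7 of the 42 (16.7%) and lower signals for 5 (11.9%). Over all genes these shares were 10.9% and 10.7%. Among transporters and hexokinases, Slc2a10, the transporter GLUT10, fell by 1.34 and 1.23, Slc2a8 by 0.69 and 0.85, Slc2a6 by 0.50 and 0.40, and Adpgk, the ADP-dependent glucokinase, by 0.81 and 0.29. Slc2a12 rose by 0.57 and 0.36. Around glycolysis, Bpgm, which makes 2,3-bisphosphoglycerate, fell by 0.74 and 1.09, and Pgm2 by 0.49 and 0.42. H6pd, the hexose phosphate dehydrogenase of the endoplasmic reticulum, fell by 1.14 and 0.67, and Rpe, which also works in the pentose phosphate pathway, by 0.47 and 0.51.

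Of 13 further genes of lactate and pyruvate, K+-free medium exceeded ouabain in 4 (30.8%) and was below it in 2 (15.4%). The other 7 did not pass, and over all genes the shares were 10.9% and 10.7%. Pdp2, a phosphatase that turns pyruvate dehydrogenase back on, read 9.50, 9.52 and 9.50 on the control arrays, 10.25, 10.30 and 10.16 with ouabain, and 9.36, 9.30 and 9.30 in K+-free medium. It rose by 0.73 with ouabain (limma adjusted p = 6.13e-07), changed by -0.18 in K+-free medium, and differed by -0.91 (limma adjusted p = 6.3e-07). Pdp1, the other such phosphatase, rose by 0.43 and 0.50. Dld, the E3 subunit, rose by 0.47 in K+-free medium and changed by 0.09 with ouabain. Pdhx, the protein that binds E3 to the complex, fell by 0.35 with ouabain, changed by 0.11 in K+-free medium, and was higher there than with ouabain by 0.47 (limma adjusted p = 5.67e-05), the opposite order to Pdha1 and Pdhb. The fall of Pdhx with ouabain was -0.14 after a further quantile normalization and did not pass. Slc16a7, the transporter MCT2, fell by 0.88 and 0.44. Slc16a7 in K+-free medium did not pass after a further quantile normalization (-0.26), nor did Slc2a12 there when centred on B2m (0.20).

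Lists from outside the pathways were read beside the members. Of the glucose sensing genes, Txnip, which restrains glucose uptake, rose by 1.21 and 1.96, and its relative Arrdc4 by 1.61 and 2.56, while Mlx, part of the transcription factor that induces both, rose by 0.40 with ouabain and changed by 0.14 in K+-free medium. The rise of Mlx was 0.24 and under the fold limit when centred on B2m, and 3 of 5 listed genes had a probe set. Of 17 HIF-1 targets outside glucose metabolism, ouabain raised 8 (47.1%) and lowered 3 (17.6%), and K+-free medium raised 7 (41.2%) and lowered 2 (11.8%), against the 17.5% and 22.7%, and 17.8% and 24.0%, of all genes. In K+-free medium 6 of the 17 rose and 5 fell when centred on B2m, where 8.69% of all probe sets rose and 25.8% fell. Centred on reference genes, 6 rose and 4 fell, against 9.09% and 24.9% of all probe sets. Adm, the vasodilator peptide adrenomedullin, rose by 1.51 and 2.99, Egln3, a prolyl hydroxylase, by 1.10 and 2.84, and Ddit4, an inhibitor of mTOR signalling, by 0.52 and 1.2. Bnip3, a mitophagy receptor, fell by 0.84 and 0.85. Among members widely known as HIF-1 targets, picked here after their values were seen, Hk2 and Pfkfb3 rose and Pdk1 and Pfkfb4 fell. Of the same pick, Slc2a1, Aldoa, Pgk1, Eno1 and Ldha passed in neither treatment. The study's introduction also counts Glut3, encoded by Slc2a3, which rose in K+-free medium alone. Further members could be counted as such targets, so this split depends on the choice of genes.

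**Figure D4:**
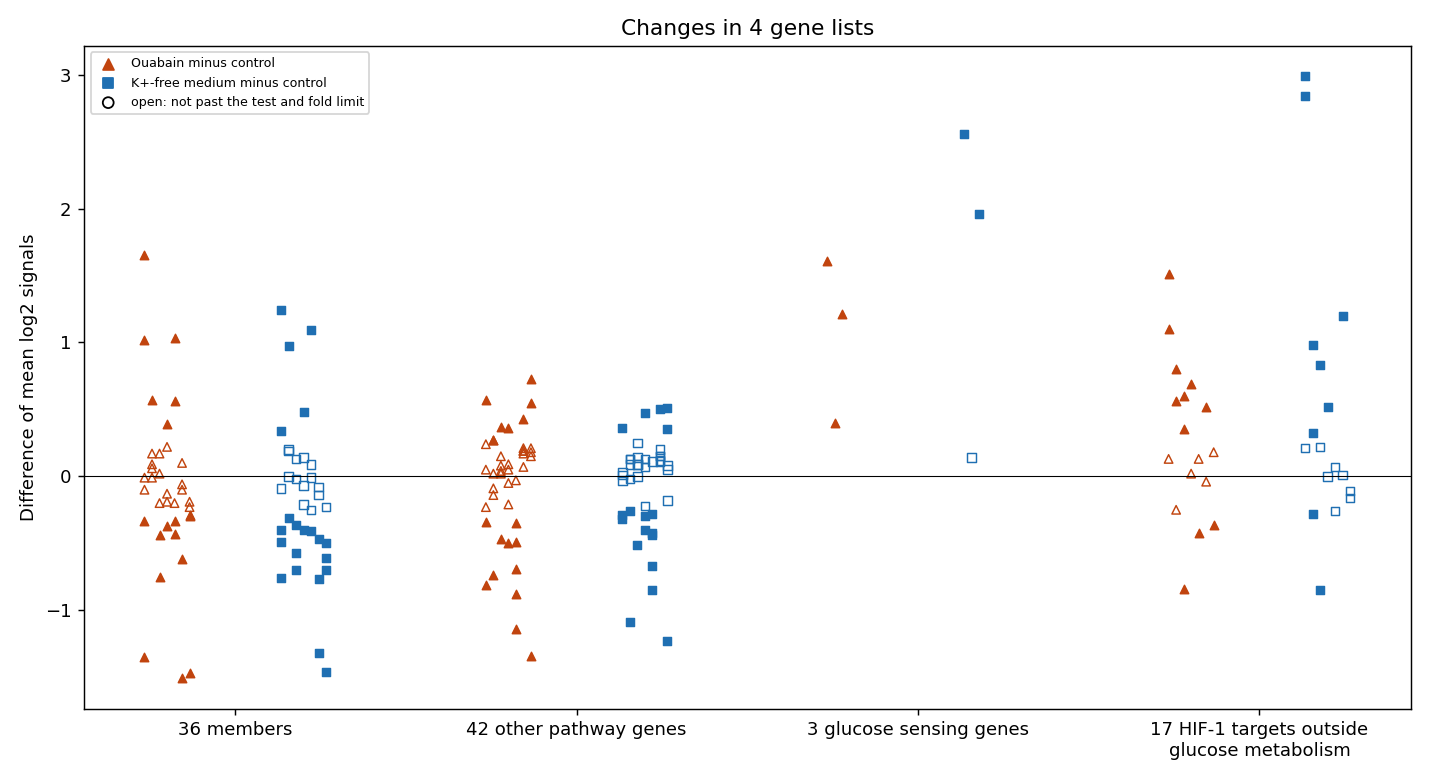
Difference of mean log2 signals from the control (y axis) for each gene of 4 lists, with triangles for ouabain and squares for K+-free medium; filled symbols passed the test and the fold limit. Members spread to both sides of 0 in both treatments, and the highest values of all are those of Adm, Egln3 and Arrdc4 in K+-free medium.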

How the data were processed

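RNA of 9 RASMC cultures (3 Control, 3 Ouabain, 3 K_Free) was hybridised to Rat Gene 1.0 ST arrays. The authors deposited log2 signals per probe set, made with RMA in Partek (versions not given in the sources used here), so that background correction and quantile normalization come before every value here, and changes are relative to total RNA. The columns were matched to samples by their labels. Probe sets were named from the platform annotation, and of several probe sets of a gene the 1 with the highest mean signal was used. A linear model with 1 mean per group was fitted to all 27342 probe sets with limma 3.58.1 in R 4.3.3, with empirical Bayes moderation and Benjamini-Hochberg adjustment over all probe sets, and checked on simulated data. Calls required an adjusted p under 0.05 and a change over 1.2-fold. The number of arrays, 3 per group, limits the precision. The members and lists were chosen with earlier results of these data known. All members are named, and per-array values are given for members with a called change of at least 0.5. Figures were drawn with matplotlib 3.10.9.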

Additional observations from a re-analysis of the deposited data

How the results depend on the processing

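No called change of a member reversed under any of the 22 alternatives run, although some changes that had not passed turned sign, such as those of Slc2a1, Tigar, Slc16a3 and Pgls with ouabain after a further quantile normalization (-0.03, 0.09, 0.21 and 0.01). Of 108 member results (36 genes in 3 comparisons, passed or not), 58 stayed on their side of the threshold under all 22. The alternatives include changes of the threshold itself: dropping the fold limit moved 10 results, and raising it to 1.5-fold moved 32. Centring on B2m moved the median change of the members to -0.27 with ouabain and -0.38 in K+-free medium, and centring on a set of reference genes to -0.24 and -0.37. At a limit of 1.5-fold, ouabain raised 3 members (8.33%) and lowered 5 (13.9%), against 4.67% and 9.68% of all probe sets. K+-free medium raised 3 (8.33%) and lowered 7 (19.4%), against 5.77% and 10%. It exceeded ouabain in 2 (5.56%) and was below it in 1 (2.78%), against 2.37% and 1.84%. In all, 3924, 4318 and 1149 probe sets passed, against 8895, 9281 and 4491 at 1.2-fold.

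Leaving out each array in turn gave 6 to 7 members higher and 11 to 15 lower with ouabain (median -0.15 to -0.07, 8435 to 9701 probe sets in all). It gave 5 to 6 higher and 16 to 17 lower in K+-free medium (-0.24 to -0.21, 8863 to 9525 probe sets), and 4 to 5 higher and 8 to 11 lower between the treatments (-0.13 to -0.04, 4291 to 4639 probe sets).

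Groups share replicate numbers. The labels do not say whether a number marks 1 of the study's parallel experiments. Deviations of same-numbered arrays correlated at -0.05 to 0.31, over 0.1 in 4 of 9 pairs. Those of arrays with different numbers correlated at -0.28 to 0.16. These values do not settle whether the numbers mark a shared experiment, and the main fit did not use them as pairs. With the number as a replicate block, 108 of 108 member results stayed on the same side of the threshold. The same held for centring on array medians, for leaving out the dimmest 25% of probe sets, and for fits of only the 6 arrays compared. A further quantile normalization ended 6 member calls and gave 6, and an ordinary analysis of variance ended both calls of Rpia that involve ouabain (adjusted p = 0.107 and 0.0874, limma without moderation). The causes were not tested.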
